A study of Mus musculus with 6 samples.

Results

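The genes described here move proteins by vesicle between the endoplasmic reticulum and the Golgi in mouse liver. They were chosen by name as members of the COPII coat, the COPI coat, the cargo receptors, the receptors that retrieve resident proteins, and the membrane fusion proteins of this route. All 39 were found among the 18193 genes measured, through 89 of the 45037 probe sets (array features) that are annotated to exactly 1 of these symbols. The 6C+4CP group ate a low-protein AIN-93M-based diet in which 6% casein was joined by 4% collagen peptide, a hydrolysate from fish. The 10C group ate a diet of the same base with 10% casein and no collagen peptide. Less casein and added collagen peptide came as 1 change, and the part of each cannot be told apart. All animals were male BALB/cCrSlc mice, an inbred laboratory strain, aged 17 weeks after 10 weeks on the diet and 3 h without food. Each diet had 12 mice, and the 3 measured were picked for medium food efficiency, so they are not a random sample of their group. Each mouse gave 1 array, n = 3 a diet.

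Liver cells, chiefly hepatocytes, send large amounts of plasma protein through this route. COPII coats bud vesicles from the endoplasmic reticulum: the small GTPase Sar1 recruits the inner Sec23 and Sec24 proteins, which hold cargo, and then the outer Sec13 and Sec31 cage. Cargo receptors span the membrane and link soluble cargo to the coat, and COPI coats carry receptors and escaped resident proteins back. KDEL receptors bind escaped chaperones in the Golgi by their tail sequence and return them.

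The deposited values behave as log2 values, with array medians of 6.306 to 6.308, and every fold given here assumes that base, which no source states. Only 17.3% of all probe sets range over more than 0.01 across the 6 mice, and the rest are said here to hold a shared value, which need not be equal to the last digit. A gene is called varying when its probe set with the highest mean ranges over more than 0.01, and 4074 genes (22.4%) do. A shared value does not show whether the level differed between mice. Albumin is such a case, and the 5 hepatocyte markers measured had a mean value of 13.22 to 13.44 in 6C+4CP livers and 13.21 to 13.42 in 10C livers. In 10C replicate 2 the acute phase gene Saa1 read 14.03, against 7.54 to 9.13 in the other mice. Of the hepatocyte markers 2 were lower in 6C+4CP livers without overlap, Cps1 by a difference of -0.27 (SE 0.041) and Apoa1 by -0.11 (SE 0.024), and Ttr, named after its values were seen, was higher without overlap by 0.032 (SE 0.012). The remaining varying marker, Tat, had a difference of 0.47 with overlap. Their part in the results below was not tested.

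Of the 39 transport genes 27 varied, and 19 of these had a lower and 8 a higher mean in 6C+4CP livers. Of the 7 members lower without overlap 6 were receptors: Lman1, Lman2, Mcfd2, Tmed3, Tmed9 and Kdelr2 were each lower in all 3 mice fed 6C+4CP than in any mouse fed 10C. Against this direction, Tmed5, Sec23a and Sar1b were higher in every mouse fed 6C+4CP, Tmed5 by 2.07 times (log2 difference 1.05, SE 0.15). The varying members of the COPI coat and its assembly differed by -0.19 to 0.0045 on the log2 scale. Fewer cells of a type and less RNA per cell cannot be told apart in these whole-tissue samples.

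Sec23a was the 1 member called, in a limma fit of all 45037 probe sets with p-values adjusted by the Benjamini-Hochberg method (adjusted p = 0.0104). The same fit called 0.242% of all probe sets (0.149% higher and 0.0933% lower), 109 in number, and 103 of these 109 hold a shared value whose differences are minute. When only the 7791 varying probe sets were fitted, limma called 0 of them, 0% of that background, with 1140 (14.6%) at an unadjusted p under 0.05. In that fit Sec23a had an adjusted p of 0.0694. Of the 47 member probe sets that varied, 5 were higher and 8 lower at an unadjusted p under 0.05, against 8.28% higher and 6.35% lower of all varying probe sets. These are not independent, since Tmed5, Lman1 and Tmed9 are each counted through more than 1 probe set. By gene, 9 of the 27 varying members were at that p in the limma fit of varying probe sets, against 667 of all 4074 varying genes. The other members' differences below are therefore values with their errors, not calls.

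A second description asks whether the 3 mice of a diet all lie above the 3 of the other. For 1 gene that is the most extreme arrangement possible, and the smallest two-sided p that an exact permutation test of 3 against 3 can give is 0.1. Of the 27 varying members 7 (25.9%) were lower without overlap, against 9.52% of all varying genes, and 3 (11.1%) were higher without overlap, against 11.8%. The share of higher members is thus near the background. Counted by probe set, 9 of the 47 were lower and 5 higher without overlap, against 9.11% lower and 10.8% higher of all varying probe sets. The share higher is near the background here too, and some genes are counted through more than 1 probe set. The median difference of the varying members was -0.14, against -0.0051 over all varying genes. Over all 39 members the median was -0.00011, since 12 hold a shared value.

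**Figure D1:**
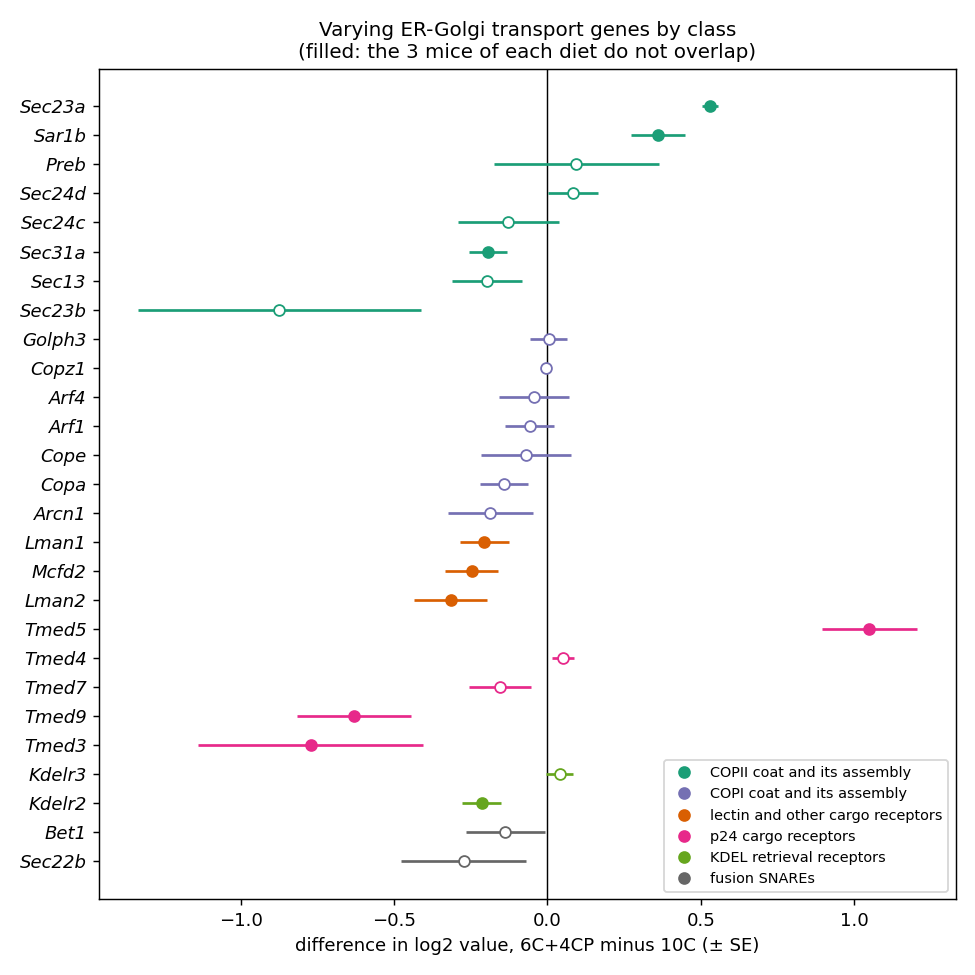
Difference in log2 value (6C+4CP minus 10C, horizontal axis, ± SE of the limma fit, n = 3 mice a diet) of the 27 varying transport genes, coloured by class, with filled points where the diets do not overlap. The 3 points of lectin and other cargo receptors lie between -0.32 and -0.21, and COPI points lie between -0.19 and 0.0045. Tmed5 at 1.05 stands opposite its relatives Tmed9 at -0.63 and Tmed3 at -0.77.

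Among the COPII genes the direction was divided, with 4 varying members higher, 4 lower and 3 holding a shared value (Sec24a, Sec24b and Sar1a). Sec23a, the inner coat protein that activates the GTPase of Sar1, read 10.50, 10.57 and 10.55 in the 6C+4CP mice, against 9.98, 10.01 and 10.04 in the 10C mice. The mice of each diet were tightly grouped and 0.47 log2 units separated the nearest pair. Sec23a thus rose by 1.44 times in 6C+4CP livers (log2 difference 0.53, SE 0.025). That call was lost without 6C+4CP replicate 3 (adjusted p = 0.0530), while the difference stayed between 0.51 and 0.55 whichever mouse was left out.

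Sar1b, the Sar1 form known for its need in lipoprotein secretion, read 12.08, 12.18 and 12.19 in the 6C+4CP mice, against 11.88, 11.63 and 11.87 in the 10C mice. All 3 mice fed 6C+4CP were higher, and 10C replicate 2 was the lowest. Its difference was 0.36 (SE 0.087), or 0.28 without that mouse. Its close relative Sar1a held shared values in both of its probe sets, so nothing can be said of it.

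Sec31a, the rod of the outer cage, went the other way, with 7.61, 7.68 and 7.65 in 6C+4CP livers and 7.73, 7.94 and 7.86 in 10C livers. The diets did not overlap, but the gap between them was 0.050. The difference was -0.19 (SE 0.063). Sec13, its partner in the cage, differed by -0.20 (SE 0.11) with overlap.

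Sec23b, the second Sec23 form, had the lowest difference of all members, -0.87, and also the widest error, SE 0.46. It read 8.77, 7.80 and 8.65 in the 6C+4CP mice, against 9.43, 9.81 and 8.61 in the 10C mice. The lowest mouse fed 10C, replicate 3, lay inside the range of the 6C+4CP mice. The Sec24 cargo adaptors that varied, Sec24c and Sec24d, differed by -0.13 (SE 0.16) and 0.083 (SE 0.082). Preb, the exchange factor that loads Sar1 with GTP, differed by 0.095 (SE 0.27), and its probe set is of a type that may bind related transcripts.

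**Figure D2:**
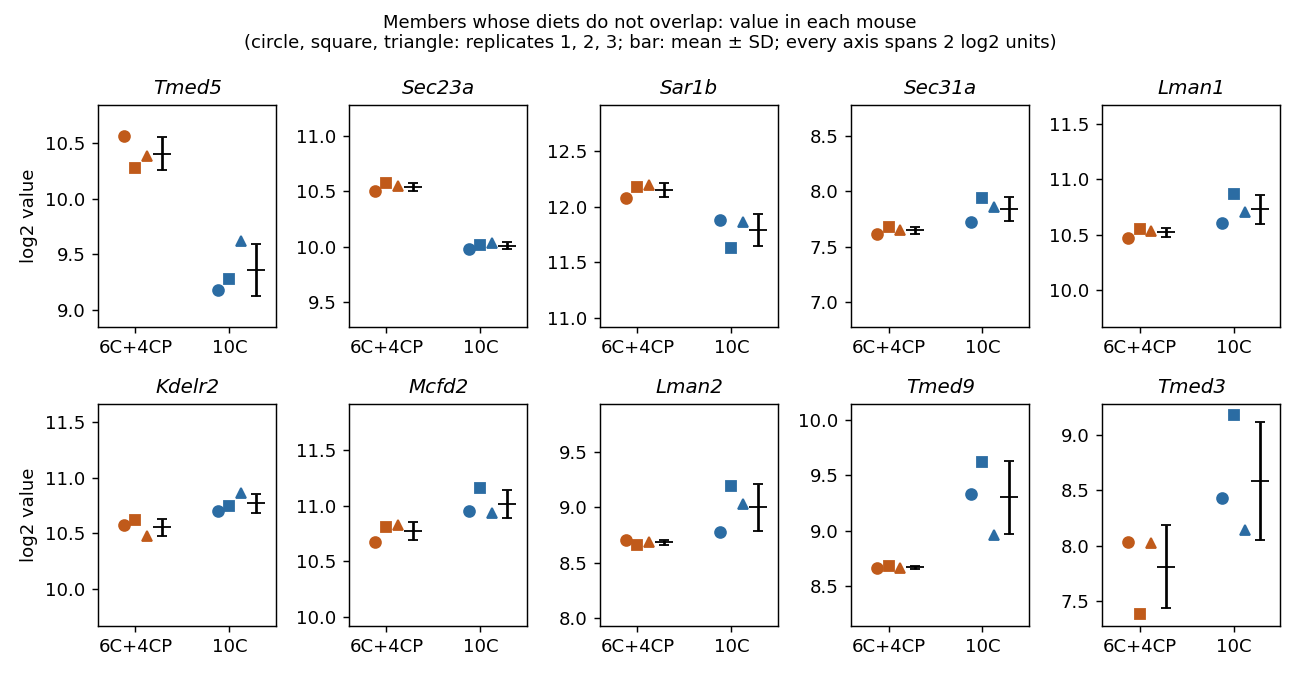
Log2 value of each mouse for the 10 members whose diets do not overlap, with 6C+4CP left of 10C, replicates 1 to 3 as circle, square and triangle, and the mean ± SD (n = 3) beside them on axes of equal span. Sec23a mice form tight groups, 10C replicate 2 is the top point of Sec31a, Lman1, Mcfd2, Lman2, Tmed9 and Tmed3, and Tmed5 has the widest separation.

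Among COPI genes, which drive retrieval to the endoplasmic reticulum, 6 of the 7 varying members were lower, 1 was higher, and 0 of the 7 were without overlap, against 21.4% of all varying genes in either direction. Copa, the alpha subunit, read 9.51, 9.58 and 9.43 in the 6C+4CP mice, against 9.58, 9.78 and 9.59 in the 10C mice. The mice of both diets overlapped by a little, and the difference was -0.14 (SE 0.078), or -0.077 without 10C replicate 2. Arcn1, the delta subunit, differed by -0.19 (SE 0.14), and its other varying probe set by 0.021. Cope, the epsilon subunit, differed by -0.070 (SE 0.15).

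Arf1 and Arf4, small GTPases of the family that recruits COPI, differed by -0.058 (SE 0.079) and -0.044 (SE 0.11). Golph3, a Golgi protein that links glycosylation enzymes to COPI, had a difference of 0.0045 in its brightest probe set and 0.11 (SE 0.042) in another, where the diets did not overlap. Copb1 and Copb2, the beta subunits, held a shared value each, although a dimmer probe set of Copb2 varied and differed by -0.10 (SE 0.084). Copz1, the zeta subunit, varied only formally: it ranged over 0.013, just past the threshold, and read 8.94, 8.94 and 8.95 in 6C+4CP livers and 8.95, 8.95 and 8.95 in 10C livers. The nearest member below the threshold was Ergic1, a cargo receptor, whose brightest probe set ranged over 0.00074, far less than 0.01.

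In the class of lectins and other cargo receptors, each of the 3 that varied was lower in 6C+4CP livers. Lman1 (ERGIC-53), a mannose-binding receptor for clotting factors and other glycoproteins, read 10.48, 10.56 and 10.54 in the 6C+4CP mice, against 10.61, 10.87 and 10.71 in the 10C mice. All 3 mice fed 6C+4CP were lower, by a gap of 0.050 at the nearest. The difference was -0.21 (SE 0.079), and a second probe set gave -0.35 (SE 0.10), also without overlap.

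Mcfd2 is the soluble partner of Lman1 in the clotting factor receptor. It read 10.68, 10.81 and 10.83 in the 6C+4CP mice, against 10.95, 11.17 and 10.94 in the 10C mice, and the diets lay apart by 0.11. The difference was -0.25 (SE 0.085). Lman2 (VIP36), a related lectin, read 8.70, 8.66 and 8.68 in the 6C+4CP mice, against 8.77, 9.19 and 9.03 in the 10C mice. Its 6C+4CP mice were nearly equal while its 10C mice spread widely, and the difference was -0.32 (SE 0.12). A second Lman2 probe set gave -0.22 (SE 0.22) with overlap. Ergic1, Ergic3 and Surf4, further receptors of the early route, held shared values in their brightest probe sets. Their dimmer varying probe sets differed by -0.17 to 0.084, all with overlap.

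The p24 family, small membrane proteins that escort cargo such as GPI-anchored proteins, held both the highest difference of all members and 2 of the 3 lowest. Tmed5 read 10.57, 10.28 and 10.38 in the 6C+4CP mice, against 9.18, 9.27 and 9.62 in the 10C mice. Every mouse fed 6C+4CP was at least 0.66 above any mouse fed 10C. A second probe set gave a difference of 0.96 (SE 0.16) without overlap, and another gave 0.50 (SE 0.22) with overlap. The dimmest varying probe set gave 0.024, and the mean over all 5 probe sets, with a shared one included, was 0.51.

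Tmed9 read 8.66, 8.69 and 8.67 in the 6C+4CP mice, against 9.33, 9.62 and 8.96 in the 10C mice. The 6C+4CP mice were almost equal (SD 0.012) and the 10C mice spread (SD 0.33). The difference was -0.63 (SE 0.19), or 1.55 times lower, and its second probe set gave -0.45 (SE 0.17), also without overlap. That second probe set is of a type that may bind related transcripts. Tmed3 read 8.03, 7.39 and 8.02 in the 6C+4CP mice, against 8.44, 9.18 and 8.15 in the 10C mice. The diets were apart by 0.11, less than the spread within either, and the difference was -0.77 (SE 0.37). Tmed4 and Tmed7 differed by 0.049 (SE 0.036) and -0.15 (SE 0.10), with overlap.

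Tmed2 and Tmed10, central members of the p24 family, each had 1 usable probe set, and both held shared values. A further 10 probe sets list one of these genes together with another symbol and were left out, as the annotation cannot separate them.

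**Figure D3:**
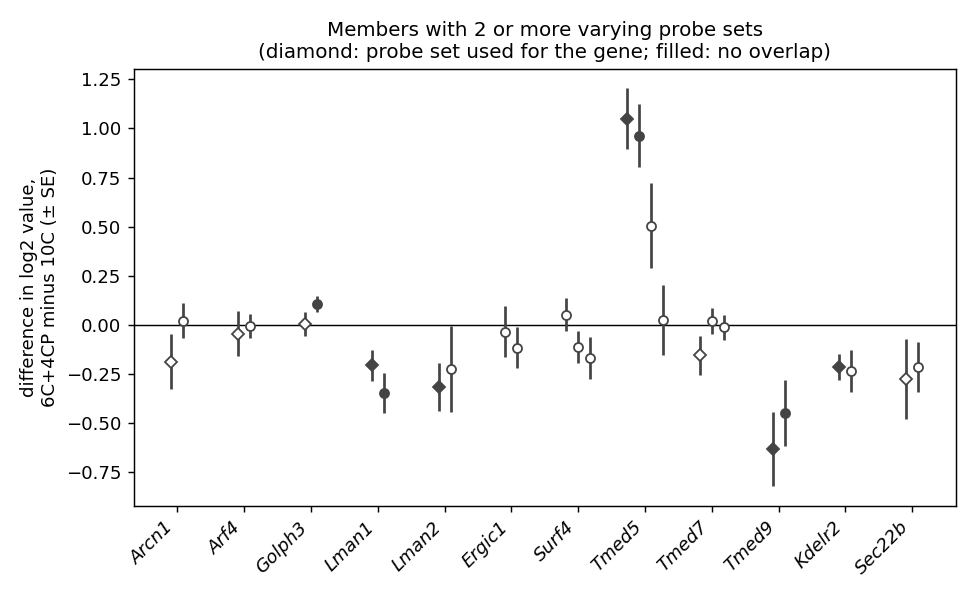
Difference in log2 value (6C+4CP minus 10C, vertical axis, ± SE, n = 3 mice a diet) of every varying probe set of the 12 members that have 2 or more, with a diamond for the probe set that stands for the gene and filled symbols where the diets do not overlap. Probe sets run the same way in 9 of the 12 genes, among them Tmed5, Tmed9, Lman1, Lman2 and Kdelr2, and both ways in Arcn1, Surf4 and Tmed7.

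Of the receptors that retrieve resident proteins, Kdelr2 read 10.57, 10.62 and 10.47 in the 6C+4CP mice, against 10.70, 10.75 and 10.86 in the 10C mice. All 3 mice fed 6C+4CP were lower, and here 10C replicate 3 was the highest. The difference was -0.22 (SE 0.065), and the second probe set gave -0.23 (SE 0.11) with overlap. Kdelr3 differed by 0.039 (SE 0.045), and Kdelr1 held a shared value.

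Resident proteins of the endoplasmic reticulum were measured on the same arrays, in a list named KDEL-type cargo. Tail sequences were not checked here, and Dnajb11 is listed as a co-chaperone of Hspa5, not for a tail of its own. Of the 12 genes in this list all varied, 12 were lower, and 11 were lower without overlap, with a median difference of -1.11. Over all varying genes 9.52% were lower without overlap and the median was -0.0051. Limma called 0 of the 12 over all probe sets, and 11 had an unadjusted p under 0.05 in the fit of varying probe sets, where 6.35% of all were lower at that p. The chaperone Hspa5 (BiP) averaged 11.81 in 6C+4CP livers and 12.96 in 10C livers, a difference of -1.15 (SE 0.14). Its co-chaperone Dnajb11 differed by -1.09 (SE 0.21), Manf by -1.49 (SE 0.26) and Creld2 by -2.71 (SE 0.49). These differences on the log2 scale are wider than that of Kdelr2, but the genes named were those of smallest p. The narrowest difference in the list was -0.11, less wide than that of Kdelr2.

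The SNAREs, which fuse vesicles with their target, were lower in both members that varied, with overlap. Sec22b read 8.59, 8.34 and 8.39 in the 6C+4CP mice, against 8.62, 9.09 and 8.43 in the 10C mice. Bet1 read 8.15, 8.22 and 8.14 in the 6C+4CP mice, against 8.19, 8.57 and 8.16 in the 10C mice. In both, 10C replicate 2 stood above the rest. The differences were -0.27 (SE 0.20) and -0.14 (SE 0.13), and without that mouse -0.087 and -0.0078. Stx5a, the syntaxin of this step, held a shared value.

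By coat and by receptor the counts differed, although the contrast between classes was not tested. Of the 10 varying cargo and retrieval receptors 6 (60%) were lower and 1 higher without overlap, and of the 15 varying coat genes 1 (6.67%) was lower and 2 higher. Over all varying genes these shares were 9.52% lower and 11.8% higher, so the coats' share lower and the receptors' share higher are near the background. The medians were -0.21 for receptors and -0.058 for coats, against -0.0051 over all varying genes. A list of other cargo receptors, not among the members, did not show the lower values. Of its 9 measured genes 2 varied, 1 higher and 1 lower, both with overlap, and their median was -0.013.

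A single mouse carried much of the spread among the members. 10C replicate 2 held the highest value in 19 of the 27 varying members (70.4%), against 27.1% of all varying genes, and in 18 of the 19 members with a lower mean in 6C+4CP. It is also the mouse with the high Saa1 value, and the part of that state in these results was not tested. Without it, 16 varying members were lower and 11 higher, and the median difference was -0.051. The count without overlap was then 7 lower (background 12.2%) and 6 higher (background 16.4%). The differences shrank to -0.47 for Tmed9, -0.48 for Tmed3, -0.22 for Lman2, -0.17 for Mcfd2, -0.14 for Lman1 and -0.15 for Sec31a, and remained 1.01 for Tmed5 and 0.53 for Sec23a. Without 10C replicate 3, in contrast, 14 members were lower without overlap (background 21.9%) and 3 higher (background 18.2%). Outside the members, 10C replicate 2 was also the highest mouse for Hspa5, Dnajb11, Manf, Creld2, Copg1, Yif1a, Nbas, Bnip1 and Yipf5. For Apob and Xbp1 the highest was 10C replicate 1. Differences of these genes without 10C replicate 2 are not given here.

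**Figure D4:**
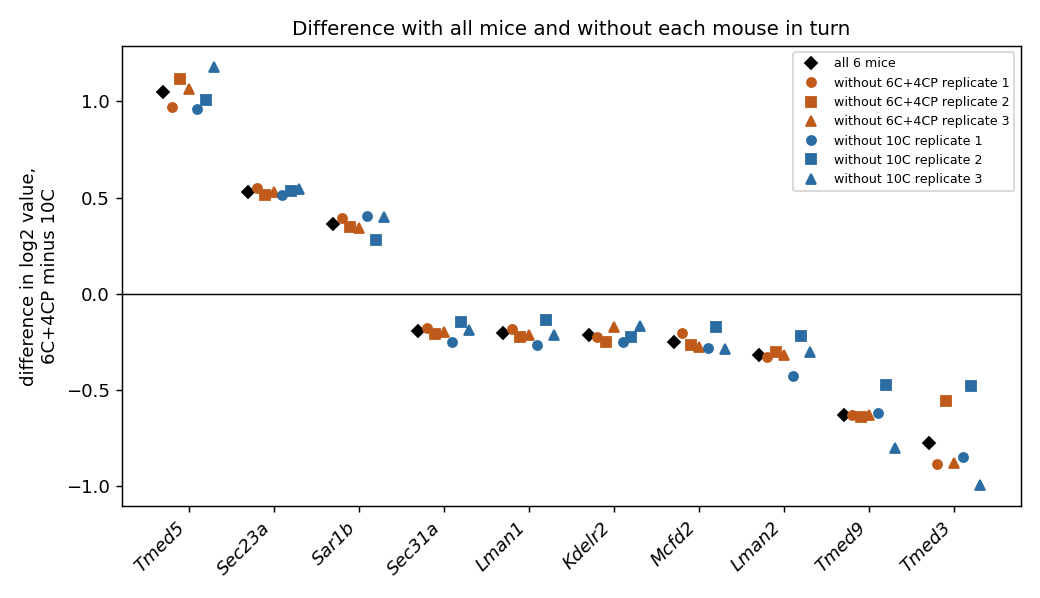
Difference in log2 value (6C+4CP minus 10C, vertical axis) of the 10 members without overlap, with all 6 mice (black diamonds) and without each mouse in turn (orange, a 6C+4CP mouse left out; blue, a 10C mouse). The sign cannot change for these 10 genes, since their diets do not overlap. Leaving out 10C replicate 2 (blue squares) brings Tmed9 to -0.47 and Tmed3 to -0.48.

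Other genes of the same route gave fewer varying values. In 5 lists of further coat, cargo, tethering and fusion genes, 74 of 77 genes were measured and 26 varied, 20 lower and 6 higher. Without overlap 5 of the 26 were lower (19.2%, against 9.52%) and 0 higher, and limma called 0 of them over all probe sets, with 4 at an unadjusted p under 0.05 in the fit of varying probe sets. Copg1, the gamma subunit of COPI, read 8.44, 8.44 and 8.20 in the 6C+4CP mice, against 8.67, 8.88 and 8.60 in the 10C mice, a difference of -0.36 (SE 0.11) without overlap. Copg1 is not among the 39 members, so the coat counts above leave it out. Arfgap2, which acts on Arf at the COPI coat, differed by -0.45 (SE 0.20) with overlap.

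The other 4 lay among SNAREs and their partners, a list of which all 9 varying members were lower. Yif1a, a membrane protein of the early route, read 9.68, 9.65 and 9.71 in the 6C+4CP mice, against 9.95, 10.26 and 10.25 in the 10C mice. Its difference was -0.47 (SE 0.099). Nbas, of a tethering complex at the endoplasmic reticulum, differed by -0.34 (SE 0.11), and the SNARE Bnip1 of that complex by -0.19 (SE 0.073). Yipf5, a Golgi membrane protein that pairs with Yif1a, differed by -0.36 (SE 0.21). The vesicle tether Uso1 (p115) differed by -0.36 (SE 0.19) with overlap.

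Clients of these receptors and coats were divided in direction. Of 8 measured, 7 varied, 4 lower and 3 higher, with differences from -0.18 to 0.15. Apob, the lipoprotein cargo that needs Sar1b, differed by -0.18 (SE 0.092) with overlap. The 1 client without overlap was Serpina1c, of the antitrypsin family, with -0.034 (SE 0.0076). Of 8 transcription factors known to act on secretory genes 6 varied, 3 higher and 3 lower. Xbp1 differed by -0.42 (SE 0.32) with overlap, and Atf6 was higher without overlap by 0.15 (SE 0.043).

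**Figure D5:**
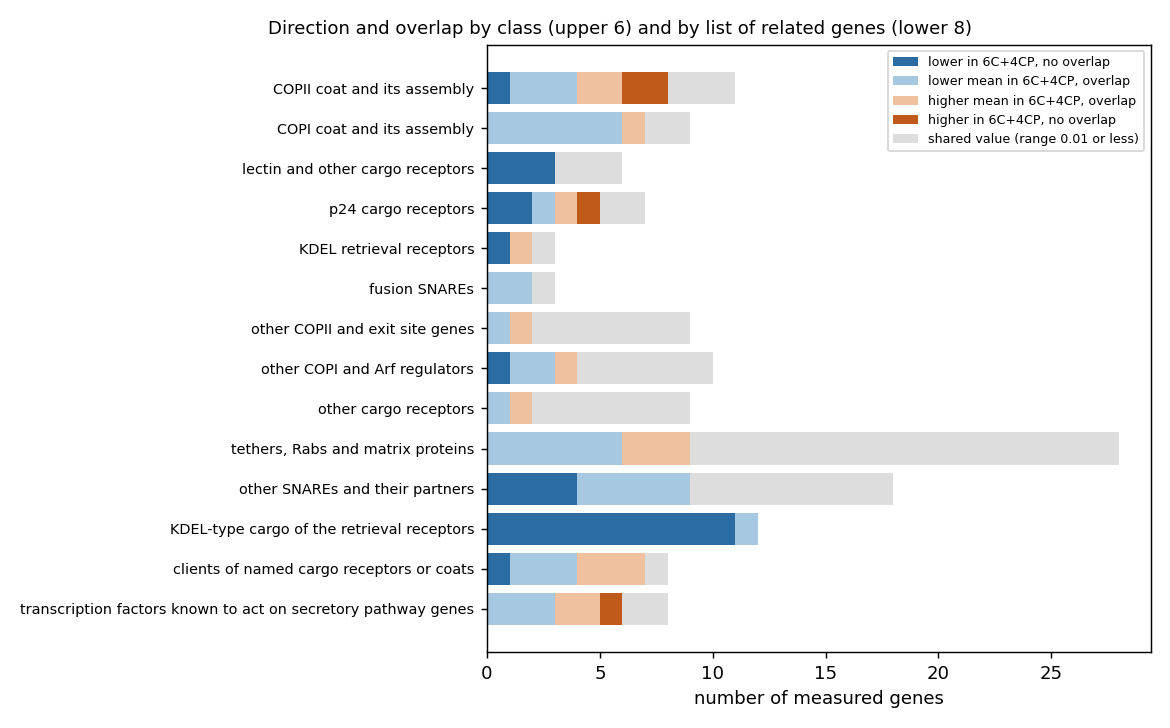
Number of measured genes (horizontal axis) in each of the 6 member classes and the 8 lists of related genes, split by direction of 6C+4CP against 10C, by overlap of the mice (n = 3 a diet), and by whether the gene holds a shared value. The KDEL-type cargo list has 11 of 12 genes lower without overlap, COPI has 0 of 9, and most tethers, Rabs and matrix proteins hold a shared value.

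The promoters of these genes were searched for motifs bound by factors of endoplasmic reticulum stress, because XBP1 and ATF6 are known to act on secretory genes. The 250 bases before the RefSeq start (GRCm38.p6) were available for 34 of the 39 members. The letters TGACGTGG, on either strand, occur in 4 of the 34 (11.8%), against 0.865% of the 14452 measured genes with a promoter and 0.563% of all 32851 promoters of that length. They are shown because these letters were more frequent among members than among measured genes, over their last 100 bases before the start, 5′ to 3′ on the gene's strand, with the match in capitals. Matches written CCACGTCA lie on the opposite strand. Sec24d lies at chr3:123267396-123267495 (+), Copb1 at chr7:114254681-114254780 (-), Arf1 at chr11:59228163-59228262 (-) and Kdelr3 at chr15:79516308-79516407 (+).
Sec24d: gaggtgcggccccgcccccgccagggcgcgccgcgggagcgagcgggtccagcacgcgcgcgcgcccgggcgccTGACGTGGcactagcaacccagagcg
Copb1: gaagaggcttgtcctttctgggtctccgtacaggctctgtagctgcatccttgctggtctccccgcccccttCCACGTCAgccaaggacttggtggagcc
Arf1: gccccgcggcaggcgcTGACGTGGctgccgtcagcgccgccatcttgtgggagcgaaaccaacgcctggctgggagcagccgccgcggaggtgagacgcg
Kdelr3: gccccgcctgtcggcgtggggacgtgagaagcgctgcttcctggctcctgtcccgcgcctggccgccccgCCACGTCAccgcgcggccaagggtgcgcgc

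These 4 genes had overlapping diets or a shared value: Sec24d differed by 0.083, Arf1 by -0.058 and Kdelr3 by 0.039, and Copb1 was shared. Of the 8 members without overlap that have a promoter, 0 hold TGACGTGG. The shorter letters TGACG, which are part of the first motif, occur in 16 of the 34 members (47.1%), against 25.9% of measured genes and 17.8% of all promoters. They occur in 0 of those 8 and in 16 of the other 26. A further 3 motifs occur in 0 of the 34: ERSE (CCAAT and CCACG with 9 bases between), ERSE-II (ATTGG and CCACG with 1 base between) and the element of PPAR receptors (AGGTCA repeated with 1 base between). They occur in 0.131%, 0.0484% and 0.0484% of measured genes. A match is a run of letters, not a binding site, and its lack says only that these letters are not in this window.

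For comparison, the same stretch is given for the pair of higher and the pair of lower members with the widest differences among those without overlap and with a promoter. None of the 4 stretches holds TGACGTGG on either strand. Tmed5 lies at chr5:108132621-108132720 (-), Sec23a at chr12:59012018-59012117 (-), Tmed3 at chr9:89705044-89705143 (-) and Tmed9 at chr13:55593035-55593134 (+).
Tmed5: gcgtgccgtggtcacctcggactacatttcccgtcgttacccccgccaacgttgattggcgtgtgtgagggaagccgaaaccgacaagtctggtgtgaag
Sec23a: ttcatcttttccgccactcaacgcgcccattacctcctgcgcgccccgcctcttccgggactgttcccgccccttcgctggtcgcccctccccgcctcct
Tmed3: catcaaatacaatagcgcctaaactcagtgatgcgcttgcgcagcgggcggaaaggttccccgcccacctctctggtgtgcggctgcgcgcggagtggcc
Tmed9: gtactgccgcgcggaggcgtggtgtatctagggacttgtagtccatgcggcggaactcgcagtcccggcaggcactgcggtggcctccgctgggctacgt

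Cells other than hepatocytes also use this route, and plasma cells rely on it heavily. Of the 6 plasma cell and B cell markers measured, 4 held a shared value, among them the plasma cell markers Jchain and Mzb1. The mean value of the 6 was 6.73 to 6.75 in 6C+4CP livers and 6.79 to 6.90 in 10C livers, and only the 2 varying markers can move it. Of these, Ighm, the immunoglobulin heavy chain, differed by -0.66 (SE 0.17) without overlap. Cd22 went the other way, by 0.050 (SE 0.055) with overlap, a difference smaller than its error. The part of Ighm in the lower receptor values was not tested. The 9 Kupffer cell and macrophage markers had a mean of 7.72 to 8.09 in 6C+4CP livers and 7.85 to 8.18 in 10C livers, with 0 without overlap. The pancreatic acinar list, with 4 measured markers, had a mean of 7.04 to 7.20 in 6C+4CP livers and 7.11 to 7.23 in 10C livers. Of 3 adipocyte markers Cidec varied and was higher without overlap, by 0.20 (SE 0.058). The part of these cells in the results was not tested.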

How the data were processed

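Total RNA from a liver piece of 6 mice was labelled from 100 ng with an Affymetrix 3' expression kit, per the labels' protocols, with 1 array a mouse. The authors deposited 1 processed value per probe set and array, read here as log2 values. R 2.7.2 is named in their steps, per the submitters' processing notes. No source used here states how background was corrected, how probes were summarised or which log base was taken. The table holds 45101 rows, of which 64 array controls were left out. GEO's platform annotation gave 1 symbol for 34945 probe sets, several for 932 and none for 9160, and the 39 members' symbols are those of the RefSeq gene table.

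The fit, 6C+4CP minus 10C, used limma 3.58.1 (R 4.3.3; lmFit, eBayes, no covariates, all probe sets, Benjamini-Hochberg adjusted p under 0.05). Its prior had 0.145 degrees of freedom, so errors are close to each probe set's own. The fit was also run on simulated data with independent noise and known changes, and no result reported here rests on that run. A gene was read from its probe set of highest mean. Promoters are RefSeq's (GRCm38.p6). Errors rest on 3 mice a diet and no signal over background is given.

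The members, the lists and the tests were chosen with earlier results of these data known. Values per mouse are given for varying members without overlap, or the 2 of smallest p in a class with none. Up to 4 genes of each related list and up to 2 of each marker list were considered by smallest p. Those named are given mostly by difference and error, with values per mouse for Copg1 and Yif1a. Sec23b was added after its values were seen, as were the motifs. Markers of 11 cell types and 6 acute phase genes were examined. As alternatives the fit was repeated without each array, with replicate number as a block, and with quantile normalization, median centring, an intensity trend with robust estimation, varying or brighter probe sets only, an adjusted p under 0.1, and other probe sets for a gene.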

Additional observations from a re-analysis of the deposited data

How the results depend on the processing

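The count of called probe sets depended on the processing: limma called 109 over all probe sets, but 0 with median centring, 0 with an intensity trend, 0 on brighter probe sets, 0 on varying probe sets, 1 with quantile normalization and 3 with the replicate number as a block (replicate block). At an unadjusted p under 0.05 those fits had 1202, 2685, 1842, 1140, 1241 and 3333 probe sets, against 2890. Without each array in turn 285 to 398 were called, of which 4 to 13 varied. The single call among member probe sets, Sec23a, became 0 in each of the 6 fits named first, with 6 to 13 member probe sets at an unadjusted p under 0.05, and 0 to 1 without each array. For Sec23a the adjusted p was 0.0836 with the replicate block and ran from 0.0169 to 0.314 over all alternative fits, against 0.0104 as reported, with 0.0530 without 6C+4CP replicate 3. The labels do not say that a number pairs mice, and deviations of same-numbered mice correlated at 0.48, -0.089 and 0.085 across varying probe sets, so the numbers were not taken as pairs.

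Members without overlap numbered 10 of 27 varying, and 11 to 17 without each array, with 17 without 10C replicate 3. Leaving out a mouse cannot lower this count. Over all varying genes the shares then ran from 12.2% to 21.9% lower and 15.1% to 18.2% higher. With all mice they were 9.52% and 11.8%. The count was 9 of 30 varying members by the mean of all probe sets of a gene. By the widest-ranging probe set it was 8 of 31, and the background of these 2 counts is not given here. Over 196 recomputed differences of 14 named members 0 changed sign, but for many of them no change was possible. Leaving out a mouse cannot turn the sign of a member without overlap. The replicate block, the intensity trend and the fits of varying or brighter probe sets return the same difference. The mean of all probe sets gave 0.51 for Tmed5, and the widest-ranging probe set gave -0.35 for Lman1. Varying members with a lower mean numbered 16 to 21 without each array. The median over all 27 varying members ran from -0.17 to -0.051. Both are alternatives added after seeing the data. Arrays number 3 a diet, and shared values limit what can be seen for 12 members.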
